A study of Carassius auratus with 6 samples.

Results

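The genes described here make fatty acids from acetate units, lengthen them, put double bonds into them and build them into glycerolipids in the liver of the crucian carp Carassius auratus. They were taken by name from the deposited expression table. A row belongs if its gene name is that of 1 of 22 listed enzymes or regulators, with or without a copy suffix, or begins with elovl and a number. The rule found 90 gene copies among the 47544 rows, each a gene of its own, under 17 of the listed names and 6 elovl names. No row carried the names scd, scd5, fads1, agpat2 or thrsp, so these are not analysed here. The row that the reference gene table calls scdb, 113096116, has no name in the deposited table and lies outside the rule, with 1 read in hypoxia replicate 1, 1 read in control replicate 1 and none in the other libraries.

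Liver RNA was sequenced from 3 samples of wild-type fish taken after 12 h of hypoxia and from 3 samples of wild-type control fish. The labels give neither age nor sex nor strain, and they do not say whether each replicate is a separate animal, so p-values measure the spread between these samples. The comparison asks how the liver transcriptome differs after hypoxia.

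Fatty acid synthesis starts from acetyl-CoA, which acetyl-CoA carboxylase turns into malonyl-CoA and fatty acid synthase assembles into palmitate. In the endoplasmic reticulum an elongation cycle of several enzymes adds further carbon units, and desaturases insert double bonds in a reaction that consumes molecular oxygen. The products are esterified to glycerol to give phospholipids and triglycerides. The liver is a main site of this pathway in vertebrates, and its enzymes are known to respond to insulin and feeding through the transcription factors SREBP-1c and ChREBP.

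Levels are normalized counts, which are reads divided by 1 size factor per library and not by gene length, so a level is compared between libraries and not between genes. Where copies are ranked as abundant, summed or given as shares of a sum, gene length is not accounted for. Libraries held 15734847 to 22782649 reads. Changes are hypoxia minus control on the scale of log2 of the level plus 1, with the standard error (SE) and an adjusted p from limma's moderated test over all tested genes. A copy rose or fell if that adjusted p was under 0.05, and it was tested if its level averaged at least 1 over the 6 libraries. Of the 90 copies 84 were tested. The liver label was checked against hepatocyte markers, led by the fibrinogen genes FGA, FGB and FGG, whose 33 rows held 11.3%, 8.24% and 11.5% of all normalized counts after hypoxia and 7.24%, 11.1% and 7.73% in controls. Of the 30 tested hepatocyte rows 3 fell (2 copies of APOA1 and fabp10a) and 0 rose. The 37 rows of exocrine pancreas markers held 0.391%, 1.25% and 0.360% after hypoxia and 0.754%, 0.111% and 0.116% in controls. The 6 rows of adipocyte markers held 0.0181%, 0.0225% and 0.0241% after hypoxia and 0.0195%, 0.0160% and 0.0214% in controls. All 3 shares overlapped between the groups. Hypoxia replicate 2 had the lowest hepatocyte share of the hypoxia libraries and the highest pancreas share of all, and it was the lowest hypoxia library in 54 of the 84 tested copies (64.3%, against 35.2% of all tested genes). The part of tissue makeup in the results was not tested.

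Most copies of the pathway were at a lower level after 12 h of hypoxia, by amounts that mostly did not pass the test. Among the 84 tested copies 2 fell and 0 rose, namely a copy of the elongase elovl6 and a copy of the glycerol acyltransferase GPAM. Of all 41045 tested genes 2.24% were called, 0.417% lower and 1.83% higher, and of the tested copies 2.38% were called, all of them lower. The median change over the tested copies was -0.50, against 0.00 over all tested genes, and 57 of the 84 had a change below 0, against 49.8% of all genes. In 25 copies every hypoxia library lay below every control library (29.8%, against 12.2% of all tested genes), and in 3 every hypoxia library lay above (12.4% of all tested genes did). Both counts include copies with few reads. Among the 25 were TECR 113042176, Lpin1 113117458, Lpin1 113117391 and the pseudogene elovl6 113114149. Among the 3 were ELOVL1 113115333 and FADS6 113055823. In bulk tissue, fewer cells of a type and less RNA per cell cannot be told apart. With hypoxia replicate 2 left out, the median was -0.25 against -0.03 over all genes, and 27 copies lay lower in both remaining hypoxia libraries (32.1%, against 16.2%). DESeq2 on the recovered reads had 11 copies lower and 1 higher (2.6% of all genes lower and 4.09% higher), and edgeR had 1 lower and 0 higher (0.404% and 1.51%). At an unadjusted p under 0.05, limma had 25 of the 84, beside 18.6% of all tested genes.

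**Figure D1:**
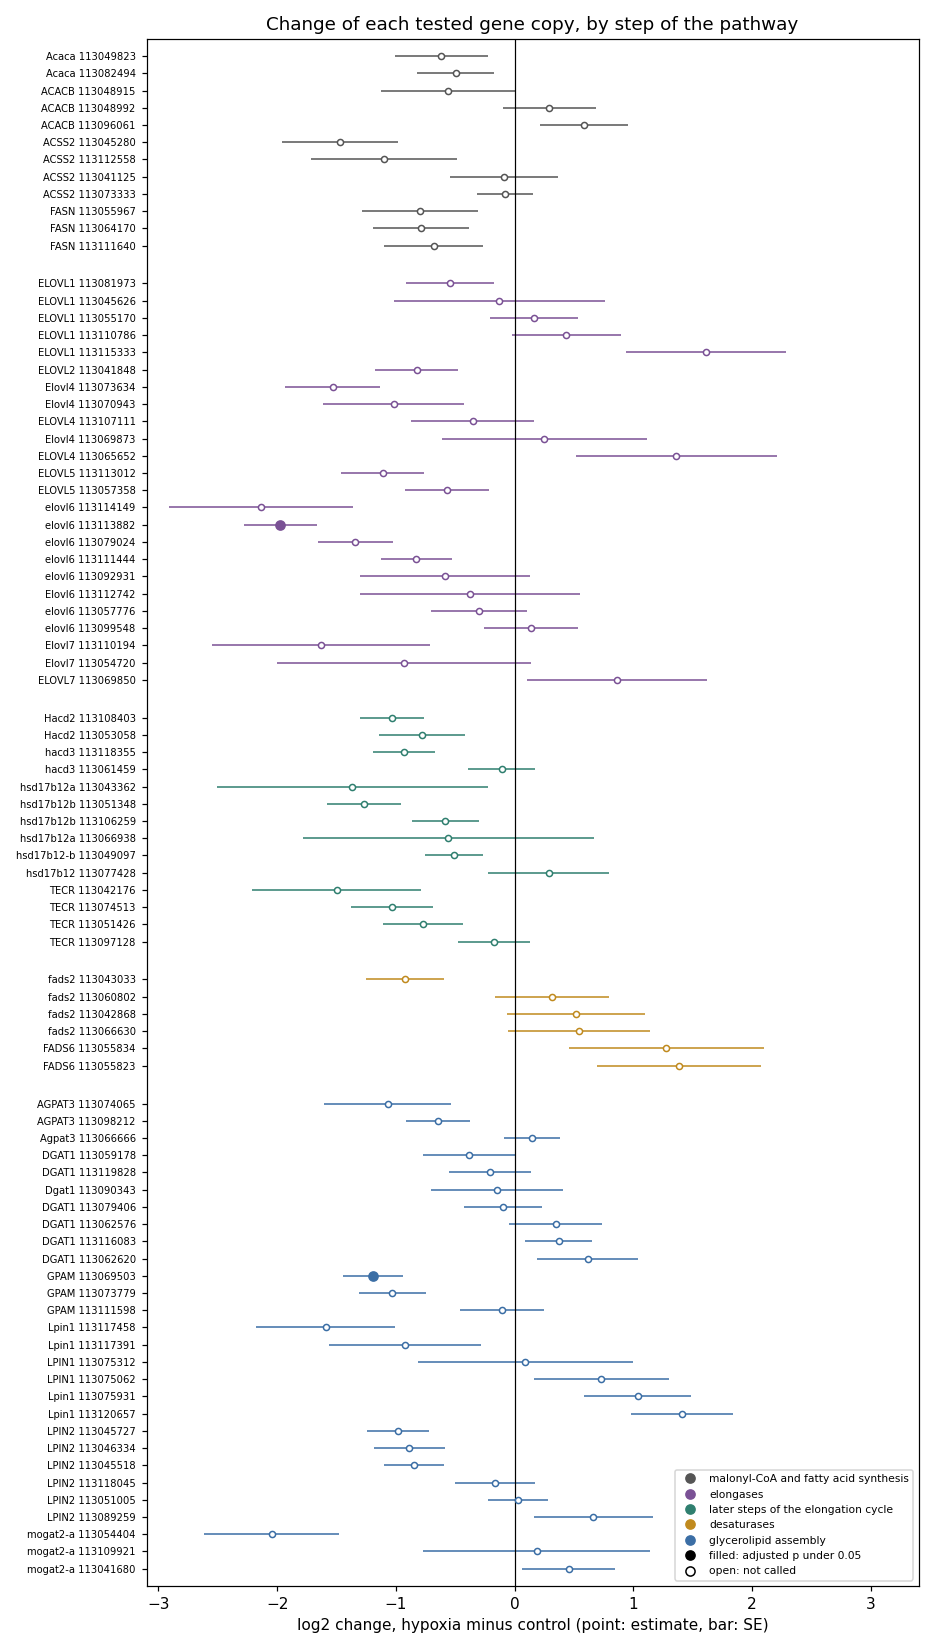
Log2 change after hypoxia (hypoxia minus control, x axis) of each of the 84 tested gene copies, named by gene and identifier down the page and coloured by step, with bars of 1 SE. The 2 filled points, elovl6 113113882 at -1.97 and GPAM 113069503 at -1.19, passed the test, and most open points of the synthesis and elongation steps lie left of 0.

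Enzymes of acetyl-CoA supply, malonyl-CoA synthesis and fatty acid synthesis had 12 copies, of which 10 had a change below 0. Limma and edgeR called 0 of the 12 (limma had 1 at an unadjusted p under 0.05). DESeq2 called 1 lower (2.6% of all tested genes were). Acss2 makes acetyl-CoA from acetate in the cytosol. Its main copy ACSS2 113112558 was at 20466, 4598 and 10849 after hypoxia and at 21648, 13356 and 34913 in controls, a change of -1.10 ± 0.62 (adjusted p = 0.37). The groups overlapped, and hypoxia replicate 2 was the lowest of the 6 libraries. The small copy ACSS2 113045280 was at 46.1, 21.4 and 32.5 after hypoxia and at 60.4, 67.0 and 179 in controls (-1.47 ± 0.49, adjusted p = 0.16), with no overlap, and it is the copy that DESeq2 called (-1.63, adjusted p = 0.0499). The acetyl-CoA carboxylase that serves cytosolic synthesis is acaca. The copy Acaca 113049823 was at 4490, 2084 and 5368 after hypoxia and at 6374, 5796 and 4910 in controls (-0.62 ± 0.39, adjusted p = 0.43), and Acaca 113082494 had a change of -0.50 ± 0.32 (adjusted p = 0.45). Summed over both copies, acaca was at 7336, 3589 and 7866 after hypoxia and at 8778, 9287 and 8480 in controls, so the summed groups did not overlap. The carboxylase of the mitochondrial surface, acacb, whose malonyl-CoA restrains fatty acid import into mitochondria, had its main copy ACACB 113096061 at 441, 633 and 501 after hypoxia and at 434, 505 and 189 in controls (0.58 ± 0.37, adjusted p = 0.43).

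Fatty acid synthase, the multifunctional enzyme that makes palmitate, had 3 copies with changes between -0.80 and -0.68. FASN 113111640 was at 6466, 2248 and 4645 after hypoxia and at 5985, 7884 and 5908 in controls (-0.68 ± 0.41, adjusted p = 0.41). FASN 113064170 was at 862, 549 and 938 after hypoxia and at 1100, 2453 and 848 in controls (-0.79 ± 0.40, adjusted p = 0.33). Summed over the copies, fasn was at 10084, 4492 and 8440 after hypoxia and at 10440, 19420 and 9060 in controls. Control replicate 2 held the highest fasn sum and hypoxia replicate 2 the lowest, and hypoxia replicate 1 lay above control replicate 3.

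The elongases, which carry out the first and chain-specific condensation of the elongation cycle, held the call with the smallest adjusted p. Elovl6 is the elongase known for turning palmitate into stearate and is a classic SREBP-1c target in mice. The copy elovl6 113113882 was at 413, 210 and 406 after hypoxia and at 1576, 1176 and 1165 in controls. It fell by 1.97 on the log2 scale (SE 0.31, adjusted p = 0.014, n = 3 per group, limma), and the highest hypoxia library was well below the lowest control. The call was lost only without control replicate 1 (adjusted p = 0.054, change -1.83), while without each other library in turn the adjusted p was at most 0.049. The second copy in order of p, elovl6 113079024, was at 274, 156 and 279 after hypoxia and at 793, 542 and 455 in controls (-1.34 ± 0.32, adjusted p = 0.069). The copy elovl6 113111444, which the reference calls zgc:92749, was at 242, 216 and 330 after hypoxia and at 356, 667 and 407 in controls (-0.83 ± 0.30, adjusted p = 0.19). These 3 copies had groups that did not overlap. The copy elovl6 113057776 was at 818, 259 and 557 after hypoxia and at 790, 511 and 547 in controls (-0.30 ± 0.40, adjusted p = 0.73). The copy elovl6 113099548 had a change of 0.14 ± 0.40, and both overlapped between the groups. The other 4 copies averaged at most 6.84 over the libraries. Among them the pseudogene elovl6 113114149 also had groups apart (-2.14 ± 0.78, adjusted p = 0.19). It was at 1.18, 0.76 and 2.44 after hypoxia and at 24.2, 3.47 and 9.01 in controls.

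The shares of the copies in the elovl6 sum are computed from the same levels, so they are no separate result. Copy 113113882 made up 21.5%, 22.9% and 23.9% of all elovl6 values after hypoxia, against 43.0%, 38.6% and 43.8% in controls. Copy 113057776 made up 42.6%, 28.2% and 32.7% after hypoxia, against 21.5%, 16.8% and 20.6% in controls. Neither pair of groups overlapped. Summed over its 9 copies, elovl6 was at 1920, 920 and 1702 after hypoxia and at 3668, 3045 and 2659 in controls, 48.5% of the control mean. In the test of a copy against the mean of the other copies of its name, elovl6 113113882 differed by -1.20 ± 0.30 with an adjusted p of 0.21, so the difference in change between copies did not pass. That mean gives each other tested copy the same weight. It includes elovl6 113114149, elovl6 113092931 and Elovl6 113112742, which averaged at most 6.84 over the libraries.

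**Figure D2:**
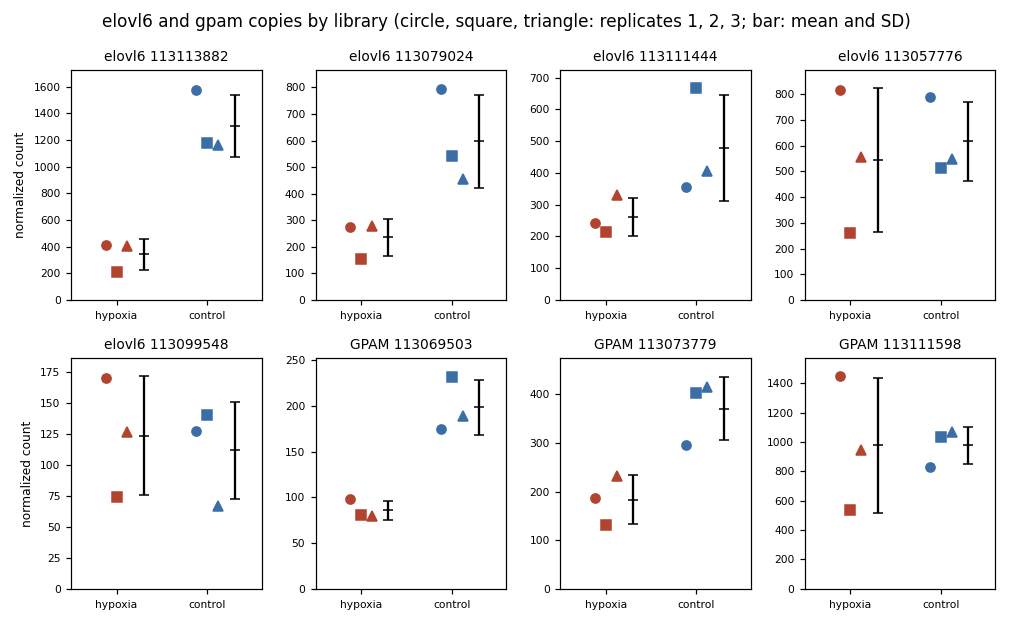
Normalized counts (y axis, from 0) of 5 elovl6 and 3 gpam copies in the 3 hypoxia and 3 control libraries, with symbols for replicates and bars for mean and SD. In elovl6 113113882, 113079024 and 113111444 and in GPAM 113069503 and 113073779 every hypoxia point lies below every control point, and in the other 3 copies the groups overlap.

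Elongases of polyunsaturated chains, elovl2 and elovl5, had changes below 0 in all 3 of their copies, with 0 called. Elovl5, which lengthens polyunsaturated fatty acids, had ELOVL5 113057358 at 4547, 2174 and 4266 after hypoxia and at 5405, 5731 and 4447 in controls (-0.57 ± 0.35, adjusted p = 0.42). ELOVL5 113113012 was at 942, 424 and 701 after hypoxia and at 1726, 995 and 1651 in controls (-1.11 ± 0.35, adjusted p = 0.14). The first copy overlapped between the groups and the second did not. Elovl2, which acts on longer polyunsaturated chains, has 1 row, ELOVL2 113041848, at 938, 482 and 1024 after hypoxia and at 1328, 1870 and 1034 in controls (-0.82 ± 0.35, adjusted p = 0.25). The highest hypoxia library and the lowest control were close together there. Elovl4 extends very long chains, and its copy Elovl4 113073634 was at 60.3, 46.6 and 87.9 after hypoxia and at 259, 225 and 105 in controls (-1.53 ± 0.40, adjusted p = 0.095). The most abundant elovl4 copy, Elovl4 113069873, spread most among controls, at 131, 566 and 32.0, against 206, 91.7 and 216 after hypoxia (0.25 ± 0.86, adjusted p = 0.91).

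Elongases of saturated very long chains showed no common direction. Elovl1 acts on saturated chains, and ELOVL1 113055170 was at 183, 432 and 182 after hypoxia and at 238, 166 and 260 in controls (0.16 ± 0.37, adjusted p = 0.85). Its smallest p belonged to a copy with a handful of reads, ELOVL1 113115333, at 3.54, 4.59 and 4.07 after hypoxia and at 1.1, 1.2 and 0 in controls (1.61 ± 0.67, adjusted p = 0.24). The copies of elovl7 were near the floor, and the most abundant, Elovl7 113110194, was at 0, 2.29 and 0 after hypoxia and at 1.1, 2.3 and 13 in controls (-1.63 ± 0.92, adjusted p = 0.38). The copy ELOVL4 113065652 had 9 reads after hypoxia and none in controls (1.36 ± 0.85, adjusted p = 0.42). With an assumed floor of 3 reads over the control group the ratio was 2.46, which sets no bound on the change. All 9 reads came from hypoxia replicates 2 and 3.

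The later steps of the elongation cycle, which a chain passes whichever elongase began it, had 14 tested copies of which limma and edgeR called 0. Of the 14 copies 13 had a change below 0, the median was -0.78, and in 7 the hypoxia libraries all lay below the controls (50.0%, against 12.2% of all tested genes). At an unadjusted p under 0.05 limma had 5 (18.6% of all tested genes were), and DESeq2 called 3 lower (2.6% of all tested genes were). Among both the 13 and the 7 was TECR 113042176, which had no reads after hypoxia. The 13 also included hsd17b12a 113043362 and hsd17b12a 113066938. Each had 22 reads in control replicate 3 and at most 8 in any other library. The second step is the reduction of the 3-oxo group by hsd17b12. The copy hsd17b12b 113051348 was at 423, 229 and 494 after hypoxia and at 907, 746 and 1001 in controls (-1.27 ± 0.31, adjusted p = 0.080). The copy hsd17b12b 113106259 was at 641, 371 and 668 after hypoxia and at 744, 942 and 764 in controls (-0.58 ± 0.28, adjusted p = 0.31). Both had groups apart, as had hsd17b12-b 113049097 at -0.51 ± 0.24.

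Dehydration, the third step, is carried out by the hacd proteins. Hacd2 113108403 was at 464, 350 and 596 after hypoxia and at 958, 786 and 1104 in controls (-1.03 ± 0.27, adjusted p = 0.093). Hacd2 113053058 was at 1444, 931 and 2541 after hypoxia and at 2421, 3013 and 2380 in controls (-0.78 ± 0.37, adjusted p = 0.29), where hypoxia replicate 3 lay within the control range. The copy hacd3 113118355 was at 245, 180 and 305 after hypoxia and at 424, 437 and 506 in controls (-0.93 ± 0.26, adjusted p = 0.11), with the groups apart. Its sister copy hacd3 113061459 was at 180, 151 and 250 after hypoxia and at 164, 243 and 214 in controls (-0.11 ± 0.28), and the test of 1 hacd3 copy against the other gave a difference of 0.82 ± 0.30 (adjusted p = 0.32). HACD1 113074277 had at most 4 reads in a library and was not tested.

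The last reduction of the cycle belongs to tecr. TECR 113074513 was at 428, 233 and 620 after hypoxia and at 718, 861 and 858 in controls (-1.03 ± 0.34, adjusted p = 0.17), with the groups apart. TECR 113051426 had a change of -0.77 ± 0.33 and TECR 113097128 of -0.17 ± 0.30. TECR 113042176 had no reads after hypoxia and 6 in controls (-1.50 ± 0.71, adjusted p = 0.30). With an assumed floor of 3 reads over the hypoxia group it was 2.44-fold lower, which sets no bound on the change.

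How reads shared by near-identical copies were counted is not stated, so levels were also summed over the copies of a name. Of the 23 gene names with a row, 8 had sums below every control in all 3 hypoxia libraries (15.7% of all 13541 named sums did) and 1, lpin1, had sums above every control (12.7%). The 8 were acaca, elovl2, elovl5, elovl6, hsd17b12, hacd2, hacd3 and agpat3, at 48.5% to 73.3% of their control means. For each of these 9 names the exact two-sided permutation p was 0.1, the smallest that 3 against 3 allows, so no sum could pass 0.05. The elongases together summed to 9013, 5001 and 8412 after hypoxia and to 13099, 12928 and 10552 in controls, and the later steps of the cycle to 5111, 3326 and 7081 after hypoxia and to 7804, 8642 and 8762 in controls. The acetyl-CoA supply, malonyl-CoA and fatty acid synthesis copies summed to 38881, 13989 and 28293 after hypoxia and to 41911, 43121 and 53826 in controls. ACSS2 113112558 made up 44.2% of that sum after hypoxia and 50.4% in controls. Each of these sums had groups apart, and hypoxia replicate 2 was the lowest library in each. The sums of the desaturases and of glycerolipid assembly overlapped between the groups.

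**Figure D3:**
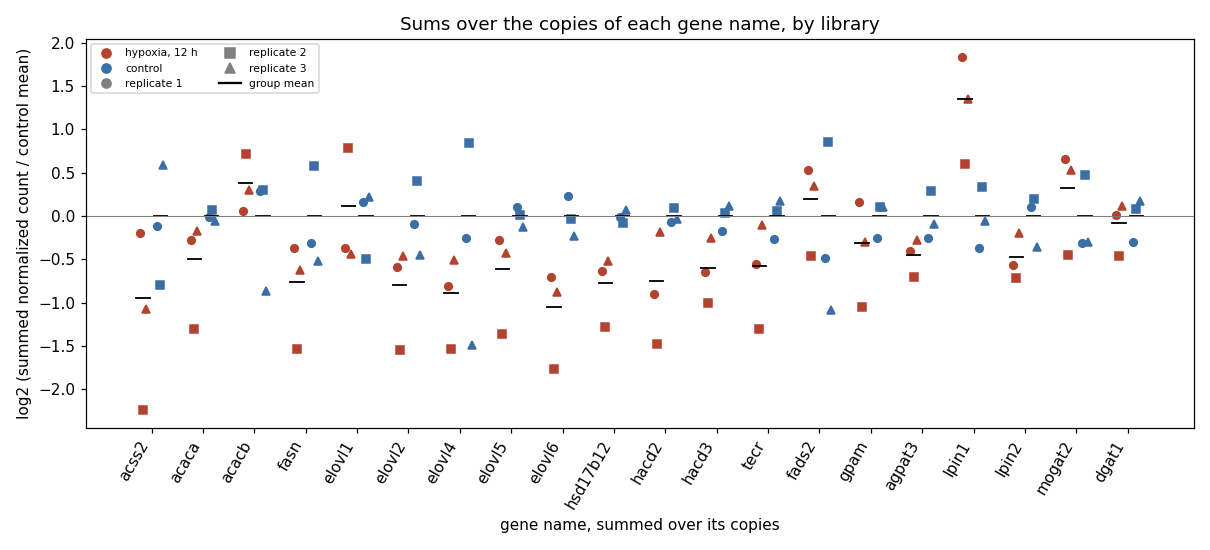
Summed normalized counts of 20 gene names in each library, as log2 of the ratio to the control mean (y axis), with hypoxia left of control for each name and black lines at group means. From acss2 to tecr most hypoxia points lie below 0, the elovl6 mean is at -1.05, the controls of fads2 lie on both sides of its hypoxia points, and lpin1 has its hypoxia mean at 1.35.

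Of the 6 tested desaturase copies 1 had a change below 0, the median was 0.53, and 0 were called (limma, with 1 at an unadjusted p under 0.05, and 0 by edgeR and DESeq2). The copies above 0 include the 2 tested FADS6 copies, with at most 7 reads in any library. The others are fads2 113066630, 113060802 and 113042868, with DESeq2 log2 changes of 0.27, 0.19 and 0.25. Summed over its 4 copies, fads2 had a log2 ratio of group means of 0.20. The fads2 enzymes introduce double bonds near the carboxyl end of polyunsaturated chains, and in zebrafish the same fads2 protein serves at both the omega-3 and the omega-6 branch. The most abundant copy, fads2 113066630, was at 18945, 9699 and 16301 after hypoxia and at 8119, 24110 and 4999 in controls (0.54 ± 0.60, adjusted p = 0.67). Control replicate 2 was the highest of the 6 libraries and the other 2 controls were the lowest. The copies fads2 113060802 and fads2 113042868 were also highest in control replicate 2 among controls, at 4248, 8454 and 2474 and at 520, 2349 and 564, with changes of 0.31 ± 0.48 and 0.52 ± 0.58. The fourth copy, fads2 113043033, was at 849, 379 and 782 after hypoxia and at 1295, 1017 and 1303 in controls (-0.92 ± 0.33, adjusted p = 0.19), with the groups apart. It made up 2.96%, 2.63% and 3.10% of fads2 values after hypoxia and 9.13%, 2.83% and 13.95% in controls. The test of this copy against the other 3 gave -1.38 ± 0.63 (adjusted p = 0.40), and -2.10 with an adjusted p of 0.042 without control replicate 2. The share of all copies called by this test without that library is not given here. The gene test without it called 2.28% of all genes lower and 3.48% higher, against 0.417% and 1.83% with all libraries.

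Rows named FADS6 held few reads. FADS6 113055834 was at 3.54, 5.35 and 5.70 after hypoxia and at 0, 5.8 and 1.0 in controls (1.28 ± 0.82, adjusted p = 0.43). FADS6 113055823 was at 2.36, 3.06 and 4.88 after hypoxia and at 1.1, 1.2 and 0 in controls (1.38 ± 0.69, adjusted p = 0.32). The genes lie next to each other in the reference gene order. The electron donors of the desaturases, cytochrome b5, its reductases and cytochrome P450 reductase, had 13 rows tested, of which 0 rose and 0 fell (limma, with 1 at an unadjusted p under 0.05, and 0 by edgeR and DESeq2), with a median of -0.07.

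Glycerolipid assembly had 28 tested copies, of which 1 fell and 16 had a change below 0, with a median of -0.13. In 9 of the 28 every hypoxia library lay below every control (32.1%, against 12.2% of all tested genes). In 1 every hypoxia library lay above (12.4% of all tested genes did). DESeq2 called 4 lower and 1 higher (2.6% and 4.09% of all tested genes were). Gpam encodes the mitochondrial acyltransferase that commits fatty acids to glycerolipids. GPAM 113069503 was at 98.1, 80.3 and 79.7 after hypoxia and at 175, 232 and 189 in controls. It fell by 1.19 on the log2 scale (SE 0.25, adjusted p = 0.0496, limma, n = 3 per group), with a wide gap between the groups. That adjusted p sits at the threshold, since edgeR gave 0.052, and leaving out each library in turn gave 0.060 to 0.16 with changes of -1.29 to -1.08. GPAM 113073779 was at 187, 132 and 233 after hypoxia and at 296, 402 and 414 in controls (-1.03 ± 0.28, adjusted p = 0.11), also with the groups apart. The most abundant copy, GPAM 113111598, was at 1448, 537 and 944 after hypoxia and at 833, 1032 and 1066 in controls (-0.11 ± 0.35, adjusted p = 0.90), and it made up 83.6%, 71.7% and 75.1% of gpam values after hypoxia and 63.9%, 61.9% and 63.8% in controls. A copy-against-copies test of GPAM 113111598 gave 1.01 ± 0.36 (adjusted p = 0.31). The next acyltransferase, agpat3, had its main copy AGPAT3 113098212 at 744, 564 and 874 after hypoxia and at 893, 1399 and 1132 in controls (-0.65 ± 0.27, adjusted p = 0.24).

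The lipins remove phosphate from phosphatidate to give diacylglycerol, and the lipin genes stood on both sides of 0. Lpin1 113120657 was at 1148, 312 and 599 after hypoxia and at 177, 253 and 253 in controls (1.41 ± 0.43, adjusted p = 0.14). All hypoxia libraries lay above the controls, hypoxia replicate 2 by the least. The second copy, Lpin1 113075931, a pseudogene in the reference, was at 126, 227 and 312 after hypoxia and at 80.2, 187 and 68.1 in controls (1.03 ± 0.45, adjusted p = 0.26). Summed over 6 copies, lpin1 was at 1304, 554 and 929 after hypoxia and at 282, 460 and 349 in controls, 255% of the control mean. Of the 6 lpin2 copies 4 had a change below 0. LPIN2 113045727 was at 141, 117 and 167 after hypoxia and at 343, 235 and 265 in controls (-0.98 ± 0.26, adjusted p = 0.099), and the pseudogenes LPIN2 113045518 and LPIN2 113046334 had changes of -0.85 ± 0.26 and -0.89 ± 0.30, all 3 with groups apart. The most abundant copy, LPIN2 113118045, was at 688, 607 and 888 after hypoxia and at 998, 1082 and 486 in controls (-0.17 ± 0.34, adjusted p = 0.82). DESeq2 called Lpin1 113120657 higher (adjusted p = 0.017) and LPIN2 113045727 lower (adjusted p = 0.026).

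Mogat2 acylates monoacylglycerol and is best known from the intestine of mammals. The row mogat2-a 113054404 was at 48.4, 20.6 and 60.2 after hypoxia and at 168, 78.6 and 340 in controls (-2.04 ± 0.57, adjusted p = 0.11), with the groups apart. The adjusted p of mogat2-a 113054404 was 0.029 without control replicate 2, a fit that called 2.28% of all genes lower and 3.48% higher. The far more abundant mogat2-a 113041680, which the reference calls mogat3a, was at 3076, 1431 and 2794 after hypoxia and at 1422, 2656 and 1265 in controls (0.45 ± 0.39, adjusted p = 0.57). The test of mogat2-a 113054404 against the other copies gave -2.36 ± 0.97 (adjusted p = 0.36). Without control replicate 2 the test gave -3.36 (adjusted p = 0.035), against mogat2-a 113041680 alone. The third copy, mogat2-a 113109921, averaged under 1 without that library and was not tested, so the 2 values differ in their comparison too. For that copy test the share of all copies called is not given here. Dgat1, 1 of the enzymes that add the last acyl chain of a triglyceride, had 7 copies between -0.38 and 0.61 with 0 called (limma, and 0 at an unadjusted p under 0.05). DGAT1 113119828 was at 534, 330 and 697 after hypoxia and at 474, 832 and 479 in controls (-0.21 ± 0.34, adjusted p = 0.78). DGAT1 113062620 was at 42.5, 39.0 and 46.4 after hypoxia and at 25.3, 45.1 and 18 in controls (0.61 ± 0.42, adjusted p = 0.47).

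**Figure D4:**
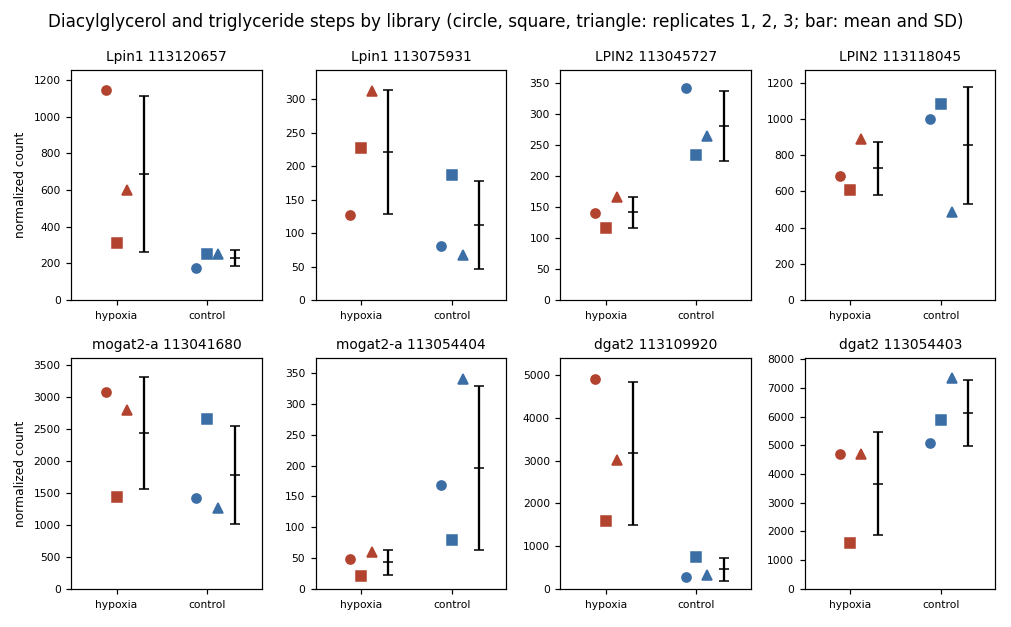
Normalized counts (y axis, from 0) of 8 copies of lpin1, lpin2, mogat2 and dgat2 in the 3 hypoxia and 3 control libraries, with symbols for replicates and bars for mean and SD. Hypoxia points lie above all controls in Lpin1 113120657 and dgat2 113109920, below all controls in LPIN2 113045727, mogat2-a 113054404 and dgat2 113054403, and overlap them in the other 3.

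Among 293 tested rows of 7 related gene lists, 4 rose and 1 fell (1.83% and 0.417% of all tested genes), with a median of -0.15. The largest of these changes belonged to dgat2, whose enzyme shares the last step of triglyceride synthesis with dgat1. The copy dgat2 113109920 was at 4906, 1581 and 3028 after hypoxia and at 286, 756 and 319 in controls. It rose by 2.80 ± 0.48 (adjusted p = 0.021), and its adjusted p was 0.070 to 0.096 without hypoxia replicate 1 or 3 or control replicate 1 or 3, each of which ended the call. It was the only row called among 36 tested of other glycerolipid and sphingolipid steps. Of its 5 copies it was the only one called. Another abundant copy, dgat2 113054403, chosen after its values were seen, was at 4690, 1591 and 4711 after hypoxia and at 5092, 5888 and 7355 in controls (-0.88 ± 0.45, adjusted p = 0.33). In the reference gene order dgat2 113109920 has mogat2-a 113109921 as its next gene, which had at most 4 reads in any library, and dgat2 113054403 has mogat2-a 113054404.

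Of 78 tested rows of lipogenic regulators 2 rose and 1 fell. Insig1 encodes the endoplasmic reticulum protein that holds SREBP precursors back. The copy insig1 113106153 was at 2450, 3159 and 4157 after hypoxia and at 496, 792 and 621 in controls. It rose by 2.35 ± 0.29 (adjusted p = 0.0044) and was called without each library in turn (adjusted p at most 0.030). The other copy, insig1 113051671, had a change of 1.32 ± 0.28 (adjusted p = 0.052). The nuclear receptor Nr0b2 113059414, the 1 called of 3 copies and a repressor known for its role in bile acid control, was at 666, 2225 and 1145 after hypoxia and at 270, 160 and 230 in controls (2.47 ± 0.42, adjusted p = 0.020, and 0.079 without hypoxia replicate 3 and 0.074 without control replicate 3). USF1 113115107, the 1 called of 4 copies and a transcription factor that binds lipogenic promoters in mammals, was at 353, 222 and 273 after hypoxia and at 826, 736 and 1153 in controls (-1.68 ± 0.27, adjusted p = 0.017, and 0.051 to 0.080 without hypoxia replicate 2 or 3 or control replicate 1 or 3). Neither copy of the gene for SREBP-1 was called, and their changes had opposite signs. SREBF1 113052347 was at 3085, 770 and 2214 after hypoxia and at 559, 1433 and 1107 in controls (0.85 ± 0.53, adjusted p = 0.42). SREBF1 113046626 was at 1207, 560 and 1205 after hypoxia and at 628, 1683 and 1312 in controls (-0.25 ± 0.43, adjusted p = 0.79). Of the 3 copies of the ChREBP gene, none called by limma, the most abundant, MLXIPL 113068024, was at 451, 314 and 410 after hypoxia and at 186, 392 and 227 in controls (0.60 ± 0.31, adjusted p = 0.34).

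Supply of acetyl-CoA, malonyl-CoA and NADPH had 58 tested rows with 0 called (limma, with 6 at an unadjusted p under 0.05, and 2 lower by DESeq2) and a median of -0.22. Its most abundant ATP citrate lyase copy, Acly 113046940, was at 17727, 5229 and 12240 after hypoxia and at 6315, 8875 and 16524 in controls (0.10 ± 0.55, adjusted p = 0.94). The subunits of AMPK, a kinase that inhibits acetyl-CoA carboxylase by phosphorylation, and the upstream kinases with their partners had 33 rows with 0 called (limma, with 4 at an unadjusted p under 0.05) and a median of -0.18. Acyl-CoA synthetases and binding proteins had 53 rows with 0 called (limma, with 9 at an unadjusted p under 0.05, and 2 higher and 2 lower by DESeq2) and a median of -0.06. Of all tested genes 18.6% had an unadjusted p under 0.05 (limma), and DESeq2 called 2.6% lower and 4.09% higher. Among the copies named acsl1, a long-chain synthetase, the most abundant was ACSL1 113091924. It was at 168, 147 and 144 after hypoxia and at 73.6, 280 and 54.1 in controls (0.55 ± 0.54, adjusted p = 0.62). Some copies named acsl4 and acsl6 had more normalized counts, which are not adjusted for gene length. The separate fatty acid synthesis pathway of mitochondria had 22 rows with a median of -0.53. In 9 of them every hypoxia library lay below every control (40.9%, against 12.2% of all tested genes). In 1 every hypoxia library lay above (12.4% of all tested genes did). Limma had 7 at an unadjusted p under 0.05, and DESeq2 called 2 lower and 1 higher. Of the 22 rows 1 rose by limma. That row, the enoyl reductase mecr 113063450, was at 374, 575 and 271 after hypoxia and at 79.1, 72.8 and 122 in controls (2.11 ± 0.34, adjusted p = 0.015, and 0.055 to 0.084 without hypoxia replicate 1 or 2 or control replicate 1), while 17 of the 22 had a change below 0, among them the other copy mecr 113059816 at -0.67 ± 0.31.

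The limma test of a copy against the other copies of its name called 0 members and 8 of all 33340 copies tested (0.024%). With so few calls over all copies, 0 among the members does not show that copies of a name changed alike. The smallest adjusted p among members was that of Lpin1 113117458, which had at most 9 reads in any library. It was at 2.36, 1.53 and 3.25 after hypoxia and 9.89, 8.09 and 9.01 in controls (-1.59 ± 0.59 in the limma gene test, adjusted p = 0.20). Against the other lpin1 copies it gave -2.06 ± 0.30 (adjusted p = 0.097, and 0.046 without control replicate 2). How many of all copies were called without that library is not given here. The authors' deposited table had 9 members lower and 1 higher at an adjusted p under 0.05 (2.39% and 3.97% of the genes tested here). In the authors' deposited table elovl6 113113882 had a log2 fold change of -1.93 (adjusted p = 6.29e-06), elovl6 113079024 of -1.34 (adjusted p = 0.0089) and GPAM 113069503 of -1.21 (adjusted p = 0.0044). The authors' deposited table also lists Elovl4 113073634 (-1.60), Hacd2 113108403 (-1.01), hsd17b12b 113051348 (-1.21), GPAM 113073779 (-1.01), LPIN2 113045727 (-0.99) and mogat2-a 113054404 (-2.19) as lower and Lpin1 113120657 (1.59) as higher. The sources used here do not name the test behind it. Each of these copies was also called by DESeq2 here, with nearly the same log2 changes. DESeq2 gave -1.93 for elovl6 113113882 and 1.59 for Lpin1 113120657. Both rest on the same libraries, so the authors' calls are no separate result.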

How the data were processed

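Liver RNA-seq of 3 hypoxia (12 h) and 3 control samples was analysed from 1 deposited table of 47544 genes. Per the submitters' processing notes, Bowtie2 2.2.8 and TopHat2 2.1.1 were used; no counter, genome build, annotation or treatment of shared reads is named in the sources used here. Although the deposited file is named for FPKM, its signal values are reads divided by 1 size factor per library (0.8465 to 1.3079), made by the authors: 100% of values were whole multiples of their library's smallest value within 0.01. Each gene also carries the authors' deposited log2 ratio of the groups with its raw and adjusted p-value, from a test that is not named.

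The test was limma 3.58.1 (R 4.3.3) with a mean-variance trend on log2 of the value plus 1, for genes with a mean of at least 1, with Benjamini-Hochberg adjustment over 41045 genes. Copies were compared by limma without the mean-variance trend, on the log2 difference between a copy and the mean of its other tested copies. On whole reads recovered from the deposited signal, edgeR 4.0.16 called 621 genes higher and 166 lower, and DESeq2 1.42.0 called 1678 and 1067. Sums over copies were compared with exact permutation tests. The fits were tested on simulated data. Alternatives were other pseudocounts, filters and scalings, and leaving out each library.

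All 90 members matched the RefSeq gene table of assembly ASM336829v1, used for symbols, gene types (10 members are pseudogenes) and gene order only. It gives a symbol for 12 members. Sequences are not shown, since none was used here. Members and gene lists were chosen with earlier results of these data known. Named members were the called copies and, per gene name, the copy with the highest mean and that with the smallest p; the other copies named were chosen after their values were seen.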

Additional observations from a re-analysis of the deposited data

How the results depend on the processing

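Counts of called genes depended on the test and on single libraries. Members lower after hypoxia were 2, and 1 under edgeR, a pseudocount of 0.5 or 5, TMM scaling, no filter on low values or the replicate block, and 11 under DESeq2, which also had 1 higher. Leaving out each library in turn gave 0 to 2 members lower. Over all tested genes 750 were higher and 171 lower. DESeq2 gave 1678 and 1067, quantile normalization 274 lower, the replicate block 354 and 61, and leaving out each library 285 to 1425 higher and 36 to 935 lower, with the upper ends without control replicate 2. Rows of the related lists were 4 higher and 1 lower, 7 and 11 under DESeq2, 1 and 0 under the block, and 2 to 6 higher and 0 to 7 lower with each library left out. Members lower in every hypoxia library were 25 (29.8%, against 12.2% of all tested genes). With each library left out they were 27 to 31, and the share of all genes was 15.8% to 21.0%. Fewer libraries separate more easily, so a rise in this count says nothing about the members. Members higher in every hypoxia library were 3 of 84, beside 12.4% of all tested genes. Without control replicate 2 they were 14 of 83, beside 20.4% of all genes. This alternative was added after seeing the data. Copy differences were 0, and 0 to 4 with each library left out, all 4 without control replicate 2. Among those 4, mogat2-a 113041680 (3.36) and mogat2-a 113054404 (-3.36) are opposite sides of the same comparison. How many of all copies were called without that library is not given here. The cause of these shifts was not tested, and the fits with a library left out also had fewer samples.

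The median change over tested members was -0.50, -0.52 under TMM and -0.56 under quantile normalization, beside 0.00, -0.01 and -0.07 over all genes. Of the 2 calls, elovl6 113113882 kept its call under each of the 9 other settings and without 5 of the 6 libraries. GPAM 113069503 kept it under DESeq2, quantile normalization and a mean of at least 10. The correlation of same-numbered samples' deviations from their group means was -0.07, -0.19 and -0.03 for numbers 1 to 3. Samples of different number gave -0.19 to 0.21. Whether same-numbered samples share a batch or are paired cannot be told from these values. Under the replicate block GPAM 113069503 had an adjusted p of 0.15 and elovl6 113113882 of 0.039 (limma). The depth of 15734847 to 22782649 reads leaves copies with a handful of reads without a measurable direction. Among these are the 6 untested members and the low copies of elovl1, elovl4, elovl6, elovl7, fads6, hsd17b12, lpin1, mogat2 and tecr.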
